A study of Mus musculus with 9 samples.

Results

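The genes described here encode the machinery with which a neuron stores transmitter in synaptic vesicles and releases it. They were chosen as the rows of the deposited table whose symbol belongs to a list of presynaptic genes. The rule uses no measured value, but the list was drawn up with earlier results of these data known, and all 39 were found among the 55247 genes of the table. By role they are 3 synapsins, 4 other proteins of the vesicle membrane, 7 synaptotagmins, 4 SNAREs, 4 SNARE regulators, 3 vesicle Rab3 proteins, 10 proteins of the active zone and of priming, 3 vesicular glutamate transporters and the endocytic adaptor gene Snap91. RNA was sequenced in dorsal root ganglia (DRG), the ganglia that hold the cell bodies of somatosensory neurons, of E18.5 mouse embryos, with 3 libraries for each of 3 genotypes. In WT embryos neither gene was modified. Isl1Cre/+ embryos had the Cre recombinase inserted in 1 of their Isl1 copies. The third genotype, Isl1Cre/+::Meis2LoxP/LoxP (mutant), had the same Cre allele and, on both copies of Meis2, LoxP sites around exon 8, the first exon that encodes the DNA-binding homeodomain. The LoxP strain had been backcrossed onto C57BL/6. Both Isl1Cre/+ and mutant embryos thus have only 1 unmodified copy of Isl1, and Cre acts in every cell that has expressed Isl1, which in these ganglia are the postmitotic sensory neurons of all classes, whether or not they use Meis2. The study asked what the loss of Meis2, a transcription factor of touch-sensing neurons, changes in these ganglia, and genes of the postsynaptic membrane are among those it names. The genes below encode presynaptic proteins, and the postsynaptic label of those other genes comes from the gene terms of the study.

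Sensory neurons release glutamate from their central terminals in the spinal cord, and DRG hold few synapses of their own. The mRNA was measured in whole ganglia, which hold the cell bodies that supply those terminals and other cells as well. In a terminal, a vesicular transporter fills the vesicle with glutamate, and synapsins tether vesicles in a reserve pool. Rab3 on the vesicle and RIM and Munc13 proteins at the active zone dock and prime the vesicle. Synaptobrevin (Vamp) on the vesicle then zippers with syntaxin and SNAP-25 on the plasma membrane into the SNARE complex, complexin clamps that complex, and synaptotagmin triggers fusion when calcium enters. NSF and alpha-SNAP (Napa) take the used complexes apart, and clathrin adaptors retrieve the vesicle membrane.

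Since the deleted exon encodes the DNA-binding domain of Meis2, the 250 bases before each annotated start were read for TGACAG, the core that MEIS homeodomains are known to bind. RefSeq (GRCm38.p6) gave 41 such sequences for 32 of the 39 genes. On either strand, TGACAG was found for 5 of these genes (15.6%), Rab3a, Slc17a6, Slc17a8, Sv2a and Syt1, beside 18.0% of the 27025 genes with a sequence. The share among the presynaptic genes was thus not above that of all genes. The first 3 sequences shown were picked because they carry the core in front of genes of different roles, with TGACAG or its reverse complement CTGTCA in capitals and the strand of the gene read 5′ to 3′. The Sv2a sequence (chr3:96180977-96181226, plus strand) holds it at 3 places within its first 40 bases, the Syt1 sequence (chr10:109009112-109009361, minus strand) and the Slc17a6 sequence (chr7:51621580-51621829, plus strand) at 1 place each. The starts that RefSeq gives for these genes, and for Syn1 shown after them, differ from the gene boundaries of the annotation used for the levels below.
Sv2a: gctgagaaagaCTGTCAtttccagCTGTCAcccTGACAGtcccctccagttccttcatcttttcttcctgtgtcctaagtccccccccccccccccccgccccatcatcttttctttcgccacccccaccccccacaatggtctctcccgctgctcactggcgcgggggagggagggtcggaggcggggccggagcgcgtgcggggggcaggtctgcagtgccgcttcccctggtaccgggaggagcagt
Syt1: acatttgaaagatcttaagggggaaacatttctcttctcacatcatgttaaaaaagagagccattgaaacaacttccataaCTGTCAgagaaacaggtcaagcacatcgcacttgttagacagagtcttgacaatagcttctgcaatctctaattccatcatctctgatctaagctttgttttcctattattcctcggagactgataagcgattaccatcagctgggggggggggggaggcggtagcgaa
Slc17a6: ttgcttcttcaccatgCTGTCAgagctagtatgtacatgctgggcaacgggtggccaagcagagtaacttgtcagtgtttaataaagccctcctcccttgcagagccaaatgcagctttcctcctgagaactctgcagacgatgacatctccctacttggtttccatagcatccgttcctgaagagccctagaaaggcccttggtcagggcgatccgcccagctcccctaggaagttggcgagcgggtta
A match is a description of letters, not a binding site. The other motifs searched were the left part of the RE1 element that the repressor REST binds, TTCAGCACC, the cAMP response element TGACGTCA and the GC box GGGCGG, each on both strands. Only Syn1 among the 32 genes carried TTCAGCACC (3.12%, beside 0.348% of all genes) and only Syn1 carried TGACGTCA (3.12%, beside 1.77%). A GC box stood before 25 of the 32 (78.1%, beside 35.4%). Both elements of Syn1, the gene of synapsin I, are in capitals in its sequence (chrX:20920919-20921168, minus strand).
Syn1: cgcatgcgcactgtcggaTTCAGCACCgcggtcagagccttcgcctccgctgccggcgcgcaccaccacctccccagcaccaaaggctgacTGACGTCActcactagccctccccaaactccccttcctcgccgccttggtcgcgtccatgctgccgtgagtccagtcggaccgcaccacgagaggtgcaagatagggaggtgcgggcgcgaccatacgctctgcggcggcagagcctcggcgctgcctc

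The libraries held 23854607 to 29103444 counts each, and Meis2, read first as a check of the genotype labels, was lower in each mutant library than in each other library. It was at 109, 102 and 94.9 cpm in the WT libraries, 95, 102 and 89.1 in the Isl1Cre/+ ones and 40.5, 40.6 and 41.0 in the mutants. The unit, cpm, is the number of counts of a gene per 1000000 counts of its library after TMM scaling. Isl1 was at 226, 272 and 283 cpm in WT libraries, 164, 190 and 201 in Isl1Cre/+ and 215, 169 and 177 in mutant ones. A pair of libraries stood apart. WT library 1 had a median rank correlation of 0.981 with the other libraries and mutant library 2 of 0.979, against 0.991 to 0.995 for the rest. Mutant library 2 also had the highest summed level of the 8 skeletal muscle markers (2227 cpm, against 68.1 to 956 elsewhere) and of the 7 erythroid markers (3958 cpm, against 343 to 2205) and the lowest of the 12 sensory neuron markers (4156 cpm, against 4624 to 5302), none of these markers being at 0 throughout. Counts from 4 Y-linked genes were found in WT libraries 1 and 2 and mutant library 1 (4701, 5763 and 5491 counts) and at 0 or 1 in the other 6, so sex was not balanced over the genotypes and no Isl1Cre/+ library came from a male. Of the presynaptic genes, Syn1 and Syp lie on the X chromosome. Neither labels nor methods say whether a library holds 1 embryo or several, so the p-values below measure the spread between these libraries. In such bulk samples, fewer cells of a type and less RNA per cell cannot be told apart.

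All 39 genes passed the filter of at least 100 counts in at least 1 library, which keeps 13200 genes of the table, and 38 had at least 494 counts in every library. The exception was Slc17a8 with 84 to 134 counts. Levels between genes were compared per kilobase of exon. On that scale the means over the 9 libraries ran from 0.858 for Slc17a8 to 305 for Cplx1, and 25 of the 39 genes were above the 85th percentile of all genes tested. Cplx1, which encodes the complexin that clamps SNARE complexes, came first with 266 to 437 cpm per kilobase over the libraries. Rab3a, a vesicle GTPase that binds RIM, followed at 159 to 195 and Syt11, a synaptotagmin that does not bind calcium, at 134 to 169, and these ranges overlap. Syn1 ranged from 116 to 151, also overlapping Syt11, and Syt4, another synaptotagmin with little calcium binding, from 74.7 to 118. At the lower end stood Syn3 with 1.52 to 2.09 and Slc17a8 with 0.647 to 1.07, which do not overlap.

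**Figure D1:**
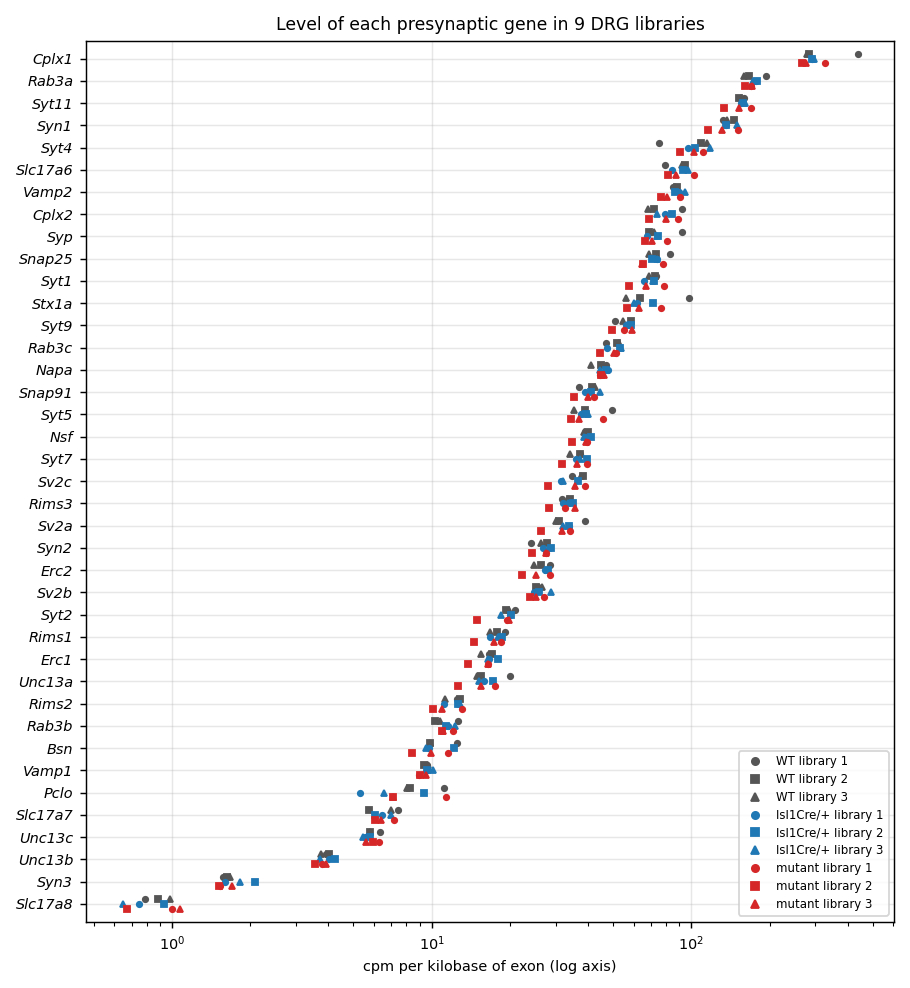
Level of each of the 39 genes in cpm per kilobase of exon (x axis, logarithmic), with 1 symbol per library, colour for genotype and shape for library number, ordered by the mean over the 9 libraries. Cplx1 lies at the top at 266 to 437 and Slc17a8 at the bottom at 0.647 to 1.07, and the colours overlap for every gene in both comparisons with WT.

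Within most families, 1 gene made up most of the level per length, where length is the union of all annotated exons. Slc17a6 (VGLUT2), the glutamate transporter of most DRG neurons, held 90.6% to 93.4% of the vesicular glutamate transporter level per length, Slc17a7 (VGLUT1), known for proprioceptors and other large neurons, 5.68% to 8.46%, and Slc17a8 (VGLUT3), known for small groups of low-threshold afferents, 0.619% to 1.13%. Synapsin I made up 81.5% to 83.9% of the synapsins, Vamp2 89.4% to 91.0% of the pair of Vamp genes, Cplx1 77.5% to 82.5% of the complexins and Rab3a 71.5% to 76.6% of the 3 Rab3 genes. For Rab3 this rests on length. In cpm, Rab3c had group means of 607, 617 and 586 in WT, Isl1Cre/+ and mutant ganglia and Rab3a of 386, 392 and 373. Among the priming factors, Unc13a (Munc13-1) held 57.1% to 66.3%. The SV2 glycoproteins were shared out more evenly, with 31.9% to 39.4% for Sv2a, 25.8% to 30.9% for Sv2b and 34.5% to 40.4% for Sv2c. Of the 7 synaptotagmins, Syt11 held 31.3% to 34.2% and the fast calcium sensors of release, Syt1 and Syt2, 13.9% to 15.7% and 3.63% to 4.49%.

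No gene of the 39 differed between genotypes by the study's criterion, which asks for a change of 1.2-fold or more in either direction and an unadjusted p under 0.05. Between mutant and WT the count was 0 of 39, where 0.318% of all genes tested met the criterion, between mutant and Isl1Cre/+ 0 of 39 beside 1.67%, and between Isl1Cre/+ and WT 0 of 39 beside 1.4%. An unadjusted p under 0.05 alone was also found for 0 of 39 in each comparison, beside 0.371%, 2.73% and 1.79% of all genes in the same order. After Benjamini-Hochberg adjustment, edgeR's quasi-likelihood test gave adjusted p = 1.0 for each of the 39, where 0.00758%, 0.00758% and 0.0% of all genes passed. The count was 0 as well with the Wald test of DESeq2 and with limma voom. Such a count does not by itself show that levels were equal, so the 95% intervals of the log2 fold changes were read too. Between mutant and WT, 36 of 39 intervals lay within a 1.5-fold change in either direction, the exceptions being Cplx1, Stx1a and Pclo. For mutant and Isl1Cre/+ it was 37 of 39, without Pclo and Slc17a8, and for Isl1Cre/+ and WT 36 of 39, without Pclo, Slc17a8 and Stx1a. The same held for 82.4%, 87.6% and 85.9% of all genes tested. These intervals are for whole ganglia. The paper reports Meis2 in only part of the DRG neurons, so a change confined to those neurons would be diluted here and was not tested.

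**Figure D2:**
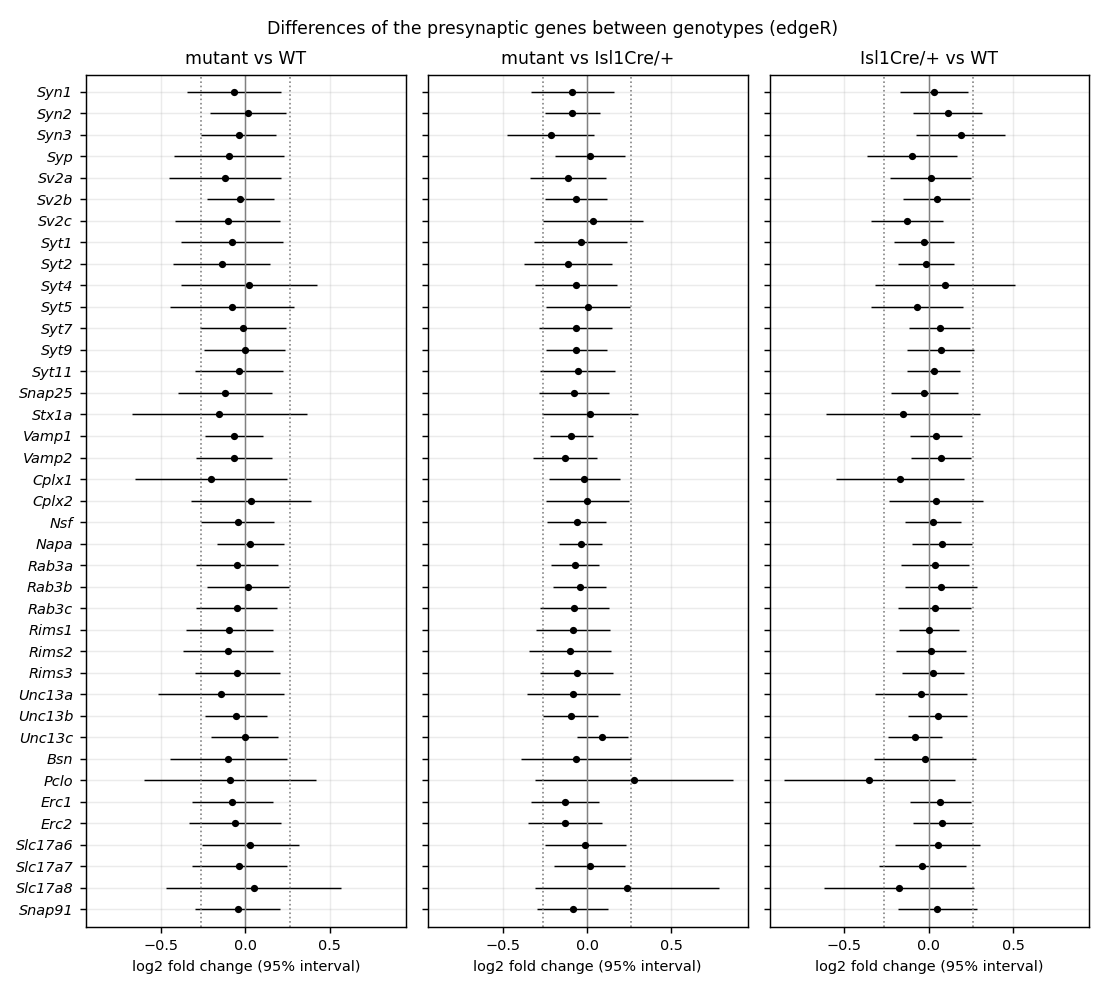
Log2 fold changes of the 39 genes with 95% intervals (edgeR, pairwise fits) for mutant against WT, mutant against Isl1Cre/+ and Isl1Cre/+ against WT, ordered by role. The solid line marks no change and the dotted lines a 1.2-fold change. Every interval crosses 0, and only Pclo has a point outside the dotted lines, at 0.28 in the second panel and -0.35 in the third.

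Between mutant and WT ganglia, 32 of the 39 fold changes were below 0 and 7 above, with a median of -0.055 on the log2 scale. Over all 13200 genes 53.8% were below 0, with a median of -0.0094. The 39 values ran from -0.20 (Cplx1) to 0.050 (Slc17a8), all smaller than 1.2-fold. None of the 39 had groups that did not overlap, beside 2.76% of all genes. This count of lower values rested on mutant library 2. Without it, 6 of 39 were below 0 and the median was 0.032, and without mutant library 1 38 of 39 were, with a median of -0.11.

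Cplx1 was the gene with the lowest value between mutant and WT. It lies at chr5:108518554-108550024 (minus strand, mm10) and was measured at 956, 621 and 610 cpm in WT libraries, 638, 635 and 649 in Isl1Cre/+ and 714, 582 and 603 in mutant ones. WT library 1 was higher than all others, and the remaining 8 libraries lay between 582 and 714 cpm. The log2 fold change was -0.20 ± 0.192 (SE), with a 95% interval of -0.65 to 0.24, and 0.040 without WT library 1. Stx1a, the gene of the plasma membrane SNARE syntaxin 1A, behaved alike with 262, 169 and 149 cpm in WT libraries, 165, 190 and 160 in Isl1Cre/+ and 203, 150 and 168 in mutant ones. Again WT library 1 was the highest, and without it the fold change went from -0.15 ± 0.221 to 0.13. Unc13a, whose product opens syntaxin for assembly during priming, had 253, 195 and 189 cpm in WT libraries, 201, 217 and 192 in Isl1Cre/+ and 221, 160 and 196 in mutant ones. Its fold change of -0.14 ± 0.160 came to 0.0031 without WT library 1. For all 3 genes the highest library was WT library 1, while WT libraries 2 and 3 lay below mutant library 1.

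At the other end of the comparison of mutant and WT were genes of vesicle filling and a complexin. Slc17a6 was at 428, 511 and 497 cpm in WT libraries, 453, 501 and 523 in Isl1Cre/+ and 554, 440 and 473 in mutant ones, a difference of 0.031 ± 0.123 on the log2 scale. Its lowest value was in WT library 1 and its highest in mutant library 1. Slc17a8 was read at 3.71, 4.16 and 4.63 cpm in WT libraries, 3.52, 4.41 and 3.05 in Isl1Cre/+ and 4.71, 3.18 and 5.06 in mutant ones, a fold change of 0.050 ± 0.222. Its 95% interval was -0.47 to 0.57. Cplx2, the second complexin, was at 455, 353 and 335 cpm in WT libraries, 389, 416 and 363 in Isl1Cre/+ and 438, 338 and 393 in mutant ones, a fold change of 0.032 ± 0.151. It met the criterion when WT library 1 and mutant library 2 were both left out (0.28 ± 0.0819), a setting chosen after the data were seen, in which the 39 genes had a median of 0.042 with 9 below 0.

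Between mutant and Isl1Cre/+ ganglia, which share the Cre allele and differ in Meis2, 30 of 39 fold changes were below 0 and 9 above. Their median was -0.066, where all genes had a median of 0.0003 with 49.8% below 0. The range was -0.22 (Syn3) to 0.28 (Pclo). Here too the balance turned without mutant library 2, with 16 of 39 below 0 and a median of 0.014, while without mutant library 1 it was 36 of 39 and -0.12. Markers of other tissues differed in this comparison as well. All 8 skeletal muscle markers and all 7 erythroid markers were higher in mutant than in Isl1Cre/+ ganglia by the criterion, at summed levels of 140 to 2227 against 68.1 to 167 cpm for muscle and of 1207 to 3958 against 343 to 979 cpm for erythroid cells. By it, 1 of 4 sympathetic neuron markers, 1 of 6 central glia markers and 2 of 4 Y-linked genes were also higher, and 1 of 6 endothelial markers was lower. All 6 macrophage markers were above 0 without meeting it. The part of these markers in the values of the presynaptic genes was not tested.

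Groups that did not overlap were found for 3 of the 39 genes between mutant and Isl1Cre/+ (7.69%), each lower in mutant, where 7.65% of all genes did not overlap and 4.2% were lower in mutant in this way. The count lies at the background. Vamp1, a synaptobrevin of fast and motor synapses, was at 97.5, 97.3 and 103 cpm in Isl1Cre/+ and 90.8, 91.4 and 96.7 in mutant libraries, and WT libraries at 97.9, 95.3 and 98.4 overlapped both groups. The difference was -0.093 ± 0.0548 on the log2 scale, with an interval of -0.22 to 0.035. Rab3a was at 396, 397 and 385 cpm in Isl1Cre/+ and 379, 359 and 382 in mutant libraries (-0.071 ± 0.0605, interval -0.21 to 0.070), with WT libraries at 433, 371 and 354 on both sides of them. Erc1, the gene of the active zone scaffold ELKS1, was at 270, 292 and 269 cpm in Isl1Cre/+ and 268, 224 and 267 in mutant libraries. Its lack of overlap rests on a gap between 268 and 269 cpm, while in its difference of -0.13 ± 0.0867 mutant library 2 was the low value and Isl1Cre/+ library 2 the high one. Of Erc1, 11.8% of the exonic bases are shared with a gene on the opposite strand.

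Syn3 had the lowest value of the comparison of mutant and Isl1Cre/+. The gene of synapsin III, the synapsin of young neurons, lies at chr10:86055125-86498896 (minus strand) and was at 19.3, 20.1 and 20.5 cpm in WT libraries, 19.7, 25.7 and 22.4 in Isl1Cre/+ and 18.8, 18.7 and 20.9 in mutant ones. Isl1Cre/+ libraries 2 and 3 were higher than the other 7, while library 1 lay among the WT values. It differed by -0.22 ± 0.110 between mutant and Isl1Cre/+ (interval -0.47 to 0.042) and by 0.19 ± 0.112 between Isl1Cre/+ and WT (-0.073 to 0.45). Both met the criterion once Isl1Cre/+ library 1 was left out, at -0.31 ± 0.103 and 0.28 ± 0.103. Of the exonic bases of Syn3, 14.1% are shared with Timp3 on the opposite strand, and as the strand setting of the counting is not given, reads of the pair may not have been told apart there. The same holds for Syp and Syt4, of whose exonic bases 16.8% and 14.5% are shared with a gene on the opposite strand, and for the other 35 genes besides Erc1 this share was under 10%. Erc2, the neuronal ELKS gene, was next to Erc1 at -0.13 ± 0.0934, from 266, 273 and 273 cpm in Isl1Cre/+ and 278, 217 and 246 in mutant libraries. Mutant library 1 was above every Isl1Cre/+ library and the other mutant libraries were below them.

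Pclo was the gene that varied most between libraries, with a within-genotype SD of 0.363 on the log2 scale, where the 39 genes began at 0.0413 (Vamp1). It encodes Piccolo, a giant scaffold that with Bassoon organises the active zone (chr5:14514918-14863459, plus strand). It was at 250, 185 and 180 cpm in WT libraries, 119, 210 and 147 in Isl1Cre/+ and 256, 160 and 160 in mutant ones. Isl1Cre/+ libraries 1 and 3 were the lowest of the 9, and the genotypes overlapped. Its fold changes were -0.35 ± 0.216 between Isl1Cre/+ and WT, 0.28 ± 0.251 between mutant and Isl1Cre/+ and -0.089 ± 0.218 between mutant and WT. Without Isl1Cre/+ library 2, the first of these became -0.61 ± 0.176 and met the criterion. Slc17a8 (0.24 ± 0.232) and Unc13c (0.089 ± 0.0644), a Munc13 known mainly from the cerebellum, were the other genes at the upper end between mutant and Isl1Cre/+. Unc13c was nearly even over the libraries, at 55.4, 50.8 and 51.0 cpm in WT libraries, 48.6, 50.9 and 47.9 in Isl1Cre/+ and 55.1, 52.5 and 49.2 in mutant ones.

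Isl1Cre/+ and WT ganglia differ by label in the Cre allele and 1 Isl1 copy. The libraries differed in other ways too. All 8 skeletal muscle markers (median -2.07) and all 7 erythroid markers (median -1.34) were lower in Isl1Cre/+ by the criterion and 2 of 6 endothelial markers higher. Of the sympathetic neuron markers 2 of 4 (Dbh and Slc6a2) and of the markers of central glia 1 of 6 (Sox9) were also lower by it, and Y-linked counts were found in 2 of 3 WT and 0 of 3 Isl1Cre/+ libraries. The part of the tissue markers in the values was not tested. With Y-linked counts as a covariate, 12 of the 39 genes were below 0 with a median of 0.066 and none met the criterion. In this comparison 14 of the 39 genes were below 0 and 25 above, with a median of 0.028 (all genes -0.0016, 50.7% below 0), a range of -0.35 (Pclo) to 0.19 (Syn3) and no group pair without overlap, beside 5.66% of all genes. Next to Pclo at the lower end were Slc17a8 (-0.18 ± 0.191) and Cplx1 (-0.17 ± 0.163), the latter again at 0.045 without WT library 1. Next to Syn3 at the upper end was Syn2 with 0.11 ± 0.0875, from 170, 196 and 186 cpm in WT and 189, 203 and 199 in Isl1Cre/+ libraries. Syt4 followed with 0.097 ± 0.178, from 291, 425 and 448 cpm in WT and 377, 402 and 458 in Isl1Cre/+ libraries. WT library 1 alone was low for Syt4, and without it the value was -0.091. The comparisons share libraries, so a library that stands apart enters more than 1 of them.

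By role, the 3 synapsins had medians of -0.038, -0.088 and 0.11 for mutant against WT, mutant against Isl1Cre/+ and Isl1Cre/+ against WT. Syn1 was at 457 ± 23.3 cpm in WT (SD, n = 3), 464 ± 26.3 in Isl1Cre/+ and 436 ± 58.2 in mutant ganglia. The other vesicle membrane genes had medians of -0.099, -0.024 and -0.044. Without mutant library 2, the first 2 medians became 0.041 and -0.024 for the synapsins and 0.019 and 0.038 for the other vesicle membrane genes. Of these, synaptophysin (Syp), an abundant protein of the vesicle membrane that binds synaptobrevin, was at 403 ± 65.0, 373 ± 19.5 and 378 ± 38.3 cpm, and the SV2 genes, whose products are the receptors of botulinum toxin A, at 155 ± 23.4, 154 ± 4.32 and 142 ± 18.7 (Sv2a), 216 ± 5.04, 222 ± 17.0 and 212 ± 12.8 (Sv2b) and 356 ± 17.8, 324 ± 26.2 and 332 ± 54.0 (Sv2c). For each of these genes the means differed by less than the largest of the SDs.

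The 7 synaptotagmins had medians of -0.037, -0.064 and 0.028 over the 3 comparisons, and of 0.066 and 0.022 in the first 2 without mutant library 2. Syt1, the main fast calcium sensor, was at 610, 603 and 572 cpm in WT libraries, 546, 596 and 594 in Isl1Cre/+ and 657, 479 and 557 in mutant ones. Mutant libraries 1 and 2 marked the highest and the lowest of the 9. Syt2, the fast sensor of hindbrain and spinal synapses, followed at 152 ± 6.6, 150 ± 7.28 and 138 ± 21 cpm, and mutant library 2 at 114 cpm was again its lowest. Syt5 (98.3 ± 17.2, 92.7 ± 3.12 and 93.0 ± 14.4 cpm), Syt9 (218 ± 15.0, 227 ± 5.55 and 217 ± 19.3), the slow, high-affinity sensor Syt7 (271 ± 13.4, 281 ± 13.7 and 268 ± 30.0) and Syt11 (812 ± 16.7, 821 ± 17.0 and 791 ± 91.7) had means that differed by less than the largest of their SDs.

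Of the SNAREs, all 4 were below 0 between mutant and WT (median -0.092), 3 of 4 without mutant library 2 (median -0.032) and 3 of 4 without WT library 1 (median -0.049), and the medians of the other comparisons were -0.085 (-0.050 without mutant library 2) and 0.0062. Snap25 was at 563, 497 and 465 cpm in WT libraries, 500, 480 and 502 in Isl1Cre/+ and 526, 442 and 437 in mutant ones (Snap25 was lowest in mutant libraries 2 and 3, but mutant library 1 was above all Isl1Cre/+ and 2 of the WT libraries). Vamp2, the vesicle SNARE of most synapses, was at 323, 335 and 328, at 340, 330 and 360 and at 344, 290 and 308 cpm in the same order. Mutant libraries 2 and 3 were the lowest for Vamp2, and mutant library 1 lay among the libraries of the other genotypes. The SNARE regulators (complexins, Nsf and Napa) had medians of -0.0079, -0.028 and 0.035, the first 2 at 0.045 and 0.027 without mutant library 2, with Nsf at 326 ± 5.68, 330 ± 10.5 and 316 ± 23.9 cpm and Napa at 167 ± 11.3, 175 ± 6.65 and 171 ± 2.90 cpm. These 2 genes, which act on SNAREs in every cell, were among the steadiest, with within-genotype SDs of 0.0711 and 0.0667 (log2).

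All 10 genes of the active zone and of priming were below 0 between mutant and WT (median -0.083), but without mutant library 2 only 1 of the 10 was (median 0.024). Between mutant and Isl1Cre/+ 8 of 10 were below 0 (median -0.082), 4 of 10 without that library, and between Isl1Cre/+ and WT 4 of 10 (median 0.0068). The RIM genes, which link Rab3 on vesicles to calcium channels, were at 132 ± 8.30, 131 ± 6.34 and 124 ± 15.0 cpm (Rims1), 127 ± 8.12, 127 ± 9.46 and 118 ± 15.7 (Rims2) and 265 ± 10.3, 267 ± 11.5 and 256 ± 29.6 (Rims3). Bassoon (Bsn) was at 199, 157 and 157 cpm in WT libraries, 155, 194 and 152 in Isl1Cre/+ and 185, 134 and 158 in mutant ones, with 1 high library in each genotype. Unc13b, a Munc13 found widely outside the brain as well, was at 88.5 ± 3.09, 91.2 ± 6.02 and 85.2 ± 4.09 cpm. The Rab3 genes had medians of -0.048, -0.071 and 0.036, the first 2 at 0.032 and -0.0095 without mutant library 2, with Rab3b at 39.6 ± 4.40, 41.3 ± 1.69 and 40.1 ± 2.22 cpm and Rab3c at 607 ± 36.9, 617 ± 41.0 and 586 ± 45.5. Slc17a7 was at 36.2 ± 4.60, 34.9 ± 2.61 and 35.3 ± 3.16 cpm, and Snap91, the gene of the clathrin adaptor AP180, at 368 ± 28.5, 378 ± 25.8 and 357 ± 32.2 cpm.

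The genes were also followed library by library. The summed level of the 39 genes was 11252, 10636 and 10374 cpm in WT libraries, 10280, 10922 and 10796 in Isl1Cre/+ and 11352, 9214 and 10315 in mutant ones, so the mutant group held both the highest and the lowest sum. Each gene was set against its median over the 9 libraries. In mutant library 2, 37 of the 39 genes were below that median, by a median of -0.19 on the log2 scale, and it was the lowest library for 25 of them (64.1%, beside 16.2% of all genes tested). The lowest value there was Syt2 at -0.40. Mutant library 1 lay the other way with a median of 0.085 and 29 genes above. The sums of the sensory neuron markers were ordered in the same way within the mutant group, at 5302, 4156 and 4805 cpm.

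**Figure D3:**
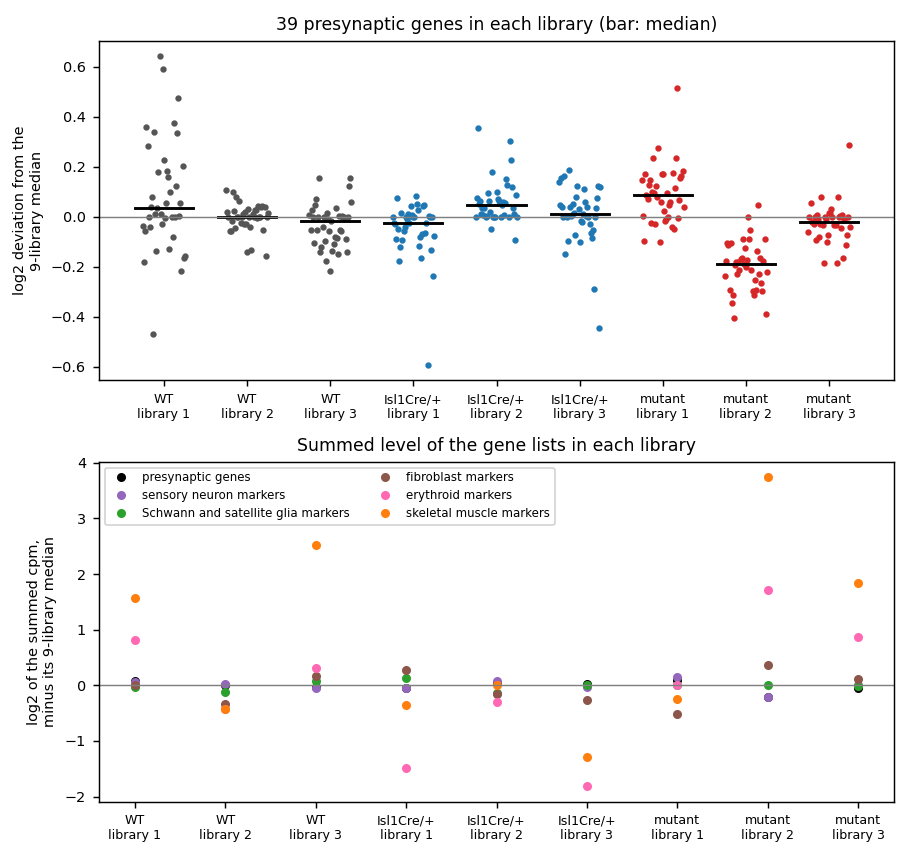
Upper panel: log2 deviation of each of the 39 genes from its median over the 9 libraries, by library, with a bar at the median of the genes. Lower panel: log2 of the summed cpm of 6 gene lists in each library, minus the list's 9-library median. In mutant library 2 the bar is at -0.19 and skeletal muscle, erythroid and fibroblast markers are at their highest.

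In WT library 1 the median deviation was only 0.035, but the 39 genes spread from -0.47 (Syt4) to 0.64 (Stx1a), and it was the highest library for 15 of them (38.5%, beside 30.4% of all genes). Across the 39 genes, this deviation went with the share of G and C in the longest transcript (Pearson's r = 0.476, Spearman's rho = 0.441), and across the 13067 genes with a transcript r was 0.444. Over the 39 genes, r was 0.388 in Isl1Cre/+ library 1, -0.366 in WT library 3, 0.0023 in mutant library 2 and between -0.207 and 0.157 in the other libraries, so WT library 1 was not alone in this. These are descriptions across genes of 1 library, which share its preparation and depth and are not independent replicates. Stx1a and Cplx1, with 57.9% and 56.0% G and C, were high in WT library 1 and Syt4, with 40.7%, was low. The part of base composition in the fold changes was not tested.

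**Figure D4:**
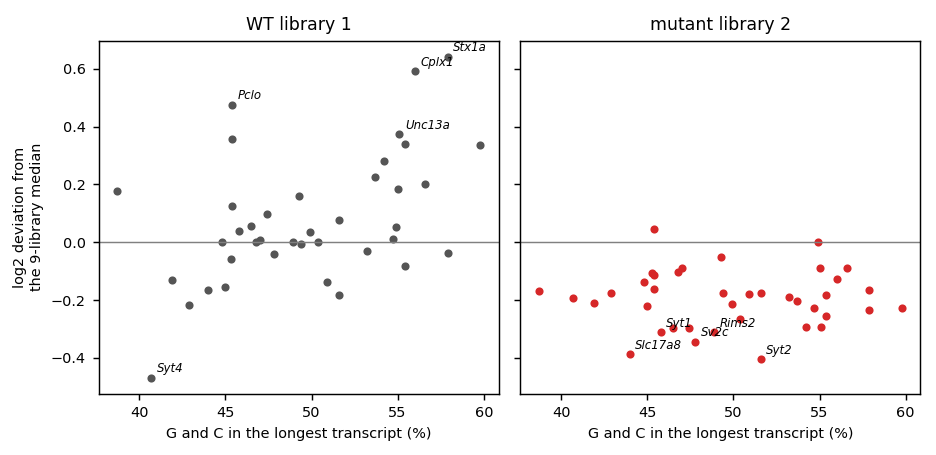
Log2 deviation of each of the 39 genes from its 9-library median (y axis) against the percentage of G and C in its longest transcript (x axis), for WT library 1 and mutant library 2, with the 5 largest deviations named. In WT library 1 the points rise from Syt4 at -0.47 to Stx1a at 0.64 (r = 0.476), and in mutant library 2, where 37 of the 39 lie below 0, r was 0.0023.

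Ratios between related genes take out what moves both genes of a library together. For 10 such ratios of levels per length, chosen after values had been seen and therefore not tested, 28 of the 30 group comparisons overlapped. The first exception was Cplx1 to Cplx2, at 4.73, 3.96 and 4.11 in WT libraries, 3.69, 3.43 and 4.02 in Isl1Cre/+ and 3.67, 3.87 and 3.46 in mutant libraries, lower in each mutant than in each WT library. The gap between the groups was small, from 3.87 to 3.96, and WT library 1 was again the highest. The second was Pclo to Bsn, at 0.892, 0.833 and 0.813 in WT and 0.546, 0.767 and 0.688 in Isl1Cre/+ libraries, with mutant libraries at 0.982, 0.847 and 0.717. These overlapped both other groups, and Isl1Cre/+ libraries 1 and 3 lay below all of them. Slc17a6 to Slc17a7, the balance of the main glutamate transporters, was 10.7, 16.4 and 13.2 in WT libraries, 13.1, 15.4 and 13.9 in Isl1Cre/+ and 14.3, 13.5 and 13.7 in mutant libraries, with the widest spread in WT.

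**Figure D5:**
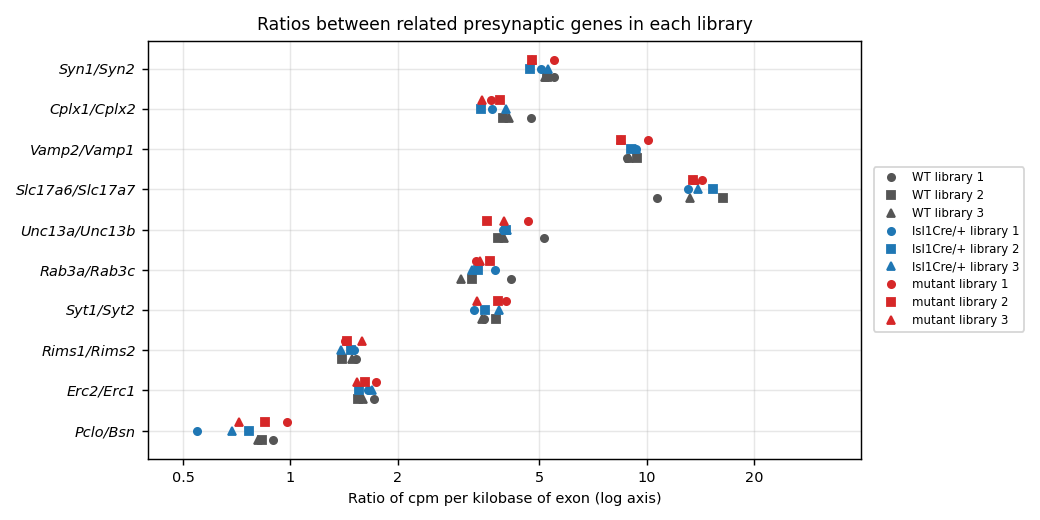
Ratio of the levels per length of 10 pairs of related genes in each library (x axis, logarithmic), with colour for genotype and shape for library number. Only Cplx1/Cplx2 between mutant (3.46 to 3.87) and WT (3.96 to 4.73) and Pclo/Bsn between Isl1Cre/+ (0.546 to 0.767) and WT (0.813 to 0.892) have groups that do not overlap.

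Other genes of the presynaptic terminal were read from a list. Of its 74 genes (further syntaxins, synaptotagmins, Munc18, liprins, synucleins, endocytic proteins, the vesicular ATPase and transporters of other transmitters), 73 were in the table and 65 passed the filter. Between mutant and WT, 42 of 65 were below 0 (median -0.027), and 1 met the criterion, between mutant and Isl1Cre/+ 41 (median -0.028) with none, and between Isl1Cre/+ and WT 29 (median 0.0066) with none. Of all genes tested, 53.8%, 49.8% and 50.7% were below 0 in the same order, and 0.318%, 1.67% and 1.4% met the criterion. Without mutant library 2, 30 of 65 were below 0 against WT (median 0.017) with none meeting the criterion, and 32 against Isl1Cre/+ (median 0.0026) with 2 meeting it, Syt6 and Rab27b, beside 1.64% of all genes in that fit. Over all single libraries left out, the counts ran from 0 to 2 in each comparison. The exception in the full set was Syt17, a synaptotagmin-related protein of trafficking, at 15.2, 15.6 and 14.6 cpm in WT libraries, 13.5, 16.8 and 11.4 in Isl1Cre/+ and 10.3, 10.5 and 13.6 in mutant ones. It was lower in each mutant than in each WT library, by -0.40 ± 0.137 (interval -0.72 to -0.079, edgeR adjusted p = 1.0), and the Isl1Cre/+ libraries spanned both groups. The criterion was no longer met without mutant library 1 or 2 or WT library 2. The 7 genes of the calcium channels that trigger release (Cacna1a, Cacna1b, Cacna1e and auxiliary subunits) had medians of -0.12, -0.063 and -0.069. None met the criterion, beside the shares of all genes given above. Without mutant library 2 their medians against WT and Isl1Cre/+ were 0.043 and 0.040.

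The genes behind the postsynaptic membrane terms of the study were read in the same libraries. The study picked them from these samples by the same criterion, so meeting it here is not independent evidence of a difference or direction. Of the 6 for mutant and WT, 6 met the criterion here and 5 were lower, with a median of -0.36. Trpv1, the capsaicin receptor of nociceptors, was at 52.1, 62.4 and 53.4 cpm in WT libraries, 44.3, 48.0 and 62.6 in Isl1Cre/+ and 41.3, 43.1 and 43.3 in mutant ones, and the mutant libraries lay below all 3 WT libraries. Its fold change of -0.39 ± 0.0954 (interval -0.62 to -0.17, edgeR adjusted p = 1.0) met the criterion in all 18 alternatives run. The others were the kainate receptor gene Grik3 (-0.46 ± 0.162), the nicotinic receptor genes Chrnb4 (-0.45 ± 0.161) and Chrna3 (-0.33 ± 0.110), the delta opioid receptor gene Oprd1 (-0.32 ± 0.133) and, higher in mutant, the muscarinic receptor gene Chrm1 (0.35 ± 0.147). Each of these lost the criterion when at least 1 single library was left out. Of the 18 alternatives, Grik3 met it in 15, Chrnb4 and Chrna3 in 14 each, Chrm1 in 9 and Oprd1 in 7. Sympathetic neurons also use nicotinic receptors, and of their markers Dbh, which makes noradrenaline, was at 0.375, 4.86 and 1.45 cpm in WT and 0.374, 0.492 and 1.96 in mutant libraries, highest in WT library 2. Th, which some sensory neurons express too, was at 13.4 to 18.1 cpm in the 9 libraries and made up the largest part of the 17.6 to 37.9 cpm to which the 8 markers summed. The 4 markers that passed the filter were all below 0 between mutant and WT (median -0.78), with Th meeting the criterion, but without WT library 2 it was 1 of 4 (median 0.028) with none meeting it. Without that library Chrnb4 did not meet the criterion and Chrna3 did, and the part of these markers in the receptor values was not tested. Against Isl1Cre/+ none of the 6 met it.

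Genes of the term for mutant and Isl1Cre/+ were read in the same way. The GABA(A) receptor gene Gabra4 (0.38 ± 0.136) and Syndig1 (0.28 ± 0.101), a protein of excitatory synapse development, were higher in mutant by the criterion, and Grid1 (-0.28 ± 0.0947), a delta glutamate receptor, was lower. Gabra4 was at 3.52, 3.84 and 3.86 cpm in Isl1Cre/+ and 4.60, 4.99 and 5.02 in mutant libraries, so the groups did not overlap. It met the criterion in 11 of the 17 alternatives run, Grid1 in 10 and Syndig1 in 8. Slc6a6 (-0.26), Shisa7 (-0.25) and Drd1 (-0.33) did not meet it, and against WT none of these 6 genes did. In cpm, which depends on length, Gabra4, Grid1 and Syndig1 had group means of 3.74 to 10.1, but Trpv1 of 42.6 to 56.0, Shisa7 of 51.2 to 60.8 and Slc6a6 of 65.1 to 77.9, and 35 of the 39 release genes had means above 45 in every genotype.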

How the data were processed

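RNA was measured by sequencing in DRG of 9 libraries, grouped by their genotype label into WT, Isl1Cre/+ and mutant with 3 libraries each. The authors made the deposited counts from poly(A) RNA and libraries with unique molecular identifiers (CORALL), by aligning reads to mm10 with STAR 2.7.10, removing duplicates with UMI-tools and counting per gene with HTSeq-count 0.6. Which annotation release and strand setting were used is not given in the sources used here. The deposited log2 fold changes and log2 mean expression, p-values and scores (moderated statistic and log odds) are results of the authors' limma fits and were not used.

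A gene was tested if any library had 100 counts or more (13200 of 55247). Each pair of genotypes was fitted alone with TMM normalization and the two-sided quasi-likelihood test of edgeR 4.0.16 in R 4.3.3, with p-values adjusted after Benjamini-Hochberg over the 13200 genes. The criterion was that of the study, a fold change of 1.2 and an unadjusted p under 0.05. SEs were derived from the fold change and its F statistic, and intervals are at 95%. Levels are cpm, counts per 1000000 counts of TMM-scaled libraries, and levels per length use the union of exons in GENCODE M21 on GRCm38, where 55154 identifiers were found. Library deviations over all genes used a pseudocount of 0.5 cpm. Between pairs of libraries of 1 genotype, the mean chi-square of a gene was 12.8 to 143 times what counting error gives. This is a mean over genes and does not show the spread of single genes. The part of depth in the values of the presynaptic genes was not tested. The fit was tested on simulated data.

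The genes and lists were chosen with earlier results of these data known. Fold changes were named for the 3 highest and 3 lowest genes of each comparison, and otherwise for genes meeting the criterion, the study's postsynaptic genes, Meis2 and Isl1. Genes without groups in overlap, ratios and values by role were named after values were seen. Vamp7 was not found under this symbol. Results on some postsynaptic genes are not reported here. Alternatives were DESeq2 1.42.0 (size factors and Wald test), library size only, no filter or 100 counts in every library, limma 3.58.1 voom with and without sample weights, all groups in 1 fit, robust fitting, a replicate block, Y-linked counts as a covariate and each library left out. Leaving out WT library 1 and mutant library 2 together was chosen after seeing the data.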

Additional observations from a re-analysis of the deposited data

How the results depend on the processing

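The count of presynaptic genes meeting the criterion was 0 in each comparison and in the alternatives run, with 4 exceptions of 1 gene each. Syn3 met it without Isl1Cre/+ library 1, between mutant and Isl1Cre/+ (-0.31) and between Isl1Cre/+ and WT (0.28), Pclo without Isl1Cre/+ library 2 between Isl1Cre/+ and WT (-0.61), and Cplx2 between mutant and WT with WT library 1 and mutant library 2 both left out (0.28). Of all genes tested, 1.27%, 1.21%, 1.27% and 1.38% met the criterion in these 4 fits. The counts with single libraries left out thus ran from 0 to 1 in the comparisons with Isl1Cre/+ and were 0 between mutant and WT. The median of the 39 fold changes ran from -0.109 to 0.0321 between mutant and WT, from -0.1186 to 0.0137 between mutant and Isl1Cre/+ and from 0.0053 to 0.0492 between Isl1Cre/+ and WT when single libraries were left out. With Y-linked counts as a covariate, the medians were -0.0199, -0.1156 and 0.0664 in the same order, with 25, 36 and 12 of 39 below 0. Sample weights in limma voom brought the median between mutant and WT to -0.0139.

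Some fold changes of named genes changed sign. With single libraries left out, those between mutant and WT ran from -0.3171 to 0.0396 for Cplx1, from -0.3115 to 0.1286 for Stx1a and from -0.2565 to 0.0031 for Unc13a, each above 0 only without WT library 1. They ran from -0.0683 to 0.1204 for Slc17a6, from -0.0595 to 0.18 for Cplx2 and from -0.0788 to 0.2486 for Slc17a8. Those between Isl1Cre/+ and WT ran from -0.2784 to 0.0454 for Cplx1 and from -0.0914 to 0.2181 for Syt4, with the changed sign without WT library 1. With WT library 1 and mutant library 2 both left out, Cplx1 came to 0.1028, Stx1a to 0.2306 and Unc13a to 0.1256 between mutant and WT. With sample weights Stx1a was at 0.0656, Unc13a at 0.002 and Slc17a6 at -0.0602 between mutant and WT, and Cplx1 at 0.0241 and Syt4 at -0.0657 between Isl1Cre/+ and WT. With the Y-linked covariate Stx1a was at 0.006 between mutant and WT, and Cplx1 at 0.0683 and Syt4 at -0.1192 between Isl1Cre/+ and WT. None of these values with a changed sign met the criterion, and the cause was not tested.

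The replicate numbers do not pair the libraries. The correlations of same-numbered libraries' deviations ran from -0.569 to 0.385, and 3 of 9 libraries correlated best with their own number. With the replicate number as a block, the count stayed at 0 in each comparison and the medians were -0.0557, -0.0674 and 0.0275. Without mutant library 1, Erc2, Rims2, Snap25 and Vamp2 had an unadjusted p under 0.05 between mutant and Isl1Cre/+ in edgeR's quasi-likelihood test at less than a 1.2-fold change, beside 4.29% of all genes. The Y-linked covariate gave the same 4 genes, and as only mutant library 1 of these 6 libraries had more than 1 such count, it is not a separate alternative there. Between Isl1Cre/+ and WT this was found for Cplx2 and Sv2c without WT library 1, beside 5.54% of all genes, and for Cplx2 with sample weights, beside 6.68%. The lowest counts were those of Slc17a8, 84 to 134, and the part of depth in its interval was not tested.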

Other observations

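Fold changes of general neuron markers depended on the libraries that stand apart. Of 14 such genes, among them genes of the neuronal cytoskeleton and of RNA-binding proteins, 12 were below 0 between mutant and WT (median -0.12), 8 without mutant library 2 (median -0.011) and 5 without WT library 1 (median 0.052). WT library 1 had the highest sum of these markers, 30886 cpm, where the other libraries had 18917 to 24176. The largest values in that sum were those of the neurofilament genes Nefm (8496 cpm) and Nefl (8067 cpm). Elavl4 was lowest in WT library 1 (307 cpm), and Uchl1, Stmn2 and Map2 were not highest there, while the other markers of the list were. The 12 sensory neuron markers had a median of -0.066 between mutant and WT, with 9 below 0, and of 0.059 without mutant library 2, with 3 below 0. Markers of Schwann and satellite glial cells were at 1444 to 1733 cpm in the 9 libraries. Of 8 markers of spinal interneurons, a possible carry-over from the cord, none passed the filter. Their sum was 4.70 to 6.59 cpm in WT, 0.711 to 1.46 in Isl1Cre/+ and 1.91 to 4.12 in mutant libraries, so the genotypes did not overlap, and the part of such cells in the other values was not tested.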
